A study of Mus musculus with 4 samples.

Results

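Potassium channel subunits are encoded in the mouse by a large group of genes whose symbols begin with Kcn. The members described here were the GENCODE release 21 protein-coding genes with such a symbol, which gave 94 genes of the 35427 genes to which the deposited transcripts could be summed. All 94 were present in the files, 88 had at least 1 read in either group, and 69 were measured, meaning that they passed a filter on low counts that left 14907 genes in all. The members comprised 30 voltage-gated pore subunits, 10 silent (modifier) subunits, 15 inward rectifiers, 14 two-pore subunits, 5 calcium-activated subunits, 3 subunits of the Slack, Slick and Slo3 type, 16 auxiliary subunits and Kcnrg, a regulator that binds voltage-gated subunits.

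Potassium channels let potassium leave the cell along its gradient and thereby set the resting potential, repolarise the action potential and limit repetitive firing. Voltage-gated channels open on depolarisation, inward rectifiers and two-pore channels carry resting and receptor-controlled currents, and calcium- and sodium-activated channels open when those ions enter the cell. Auxiliary subunits form no pore and alter the surface level, gating or inactivation of the pore subunits. In glia the inward rectifier Kcnj10 takes up potassium released by neurons, and microglia carry a small set of their own potassium channels.

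RNA was recovered from tagged ribosomes of 4-month-old C57BL/6J mice with the alleles P2RY12CreER and Rpl22HA, in which Cre made under a microglial gene switches on an epitope-tagged ribosomal protein. All mice were fear conditioned, a training that pairs a place or cue with a shock. The control mice slept for 6 h after training and the sleep-deprived mice were kept awake for 6 h. Each deposited sample pooled 2 mice, was labelled as hippocampus, and was described as a technical replicate. Group membership was taken from the sample titles, because the treatment field names sleep deprivation for every sample. The total estimated reads were 14877011 and 14833320 in the control files and 14473030 and 14431647 in the sleep-deprived files.

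Paired files of one group differed less than sampling noise allows, so each pair was averaged and counted as 1 sample. For the Kcn genes with a mean of 20 reads or more, the chi-square divided by its degrees of freedom came to 0.043 for the control pair, 0.026 for the sleep-deprived pair and 63.9 to 64.2 for files of different groups. Every comparison is therefore of 1 library with 1 library, with no replicate check and no p-value. The 95% intervals given with ratios are exact (Clopper-Pearson) and cover counting error only, since reads are not independent molecules and mice were not compared. A gene is called higher (or lower) after deprivation, meaning in the sleep-deprived library against the control, where the difference was 2-fold or more and the interval of the ratio excluded 1. Fewer cells of a type and less RNA per cell cannot be told apart in such samples.

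The labelled tissue and cell type were checked against marker genes before the channels were described. The hippocampus and forebrain list and the cerebellum list were put together after values had been seen. The 14 genes typical of hippocampus and forebrain summed to between 15.3 and 16.4 TPM (the authors' level per transcript length) in the 4 files. Emx1 had 2 reads in the control and 0 after deprivation, and Emx2 had 0 and 2. The 15 genes typical of cerebellum summed to 3276 and 3286 TPM in the control and to 3566 and 3597 TPM in the sleep-deprived files. These levels go against the hippocampus label in both groups, so the tissue is called by its label only. Of 14 microglial markers 11 were called higher in the sleep-deprived library, where 4.24% of all measured genes were, and none was lower. None was at 0 in any file, and their sum was 186 CPM in the control and 590 CPM after deprivation (reads per 1e6 reads after TMM scaling). Neuron and oligodendrocyte markers summed to more than the microglial ones in both libraries, in CPM and TPM, which goes against RNA of microglia alone. In TPM the microglial sum was 222 in the control and 884 after deprivation. The neuron sum was 2572 and 2516 TPM and the oligodendrocyte sum was 2517 and 1721 TPM. The astrocyte sum was 926 and 523 TPM, so it lay below the microglial one after deprivation. The 8 neuron markers summed to 3604 and 3040 CPM (0.843, 0.833 to 0.854), the 7 oligodendrocyte markers to 3502 and 2189 CPM (0.625, 0.616 to 0.634) and the 7 astrocyte markers to 1608 and 842 CPM.

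**Figure D1:**
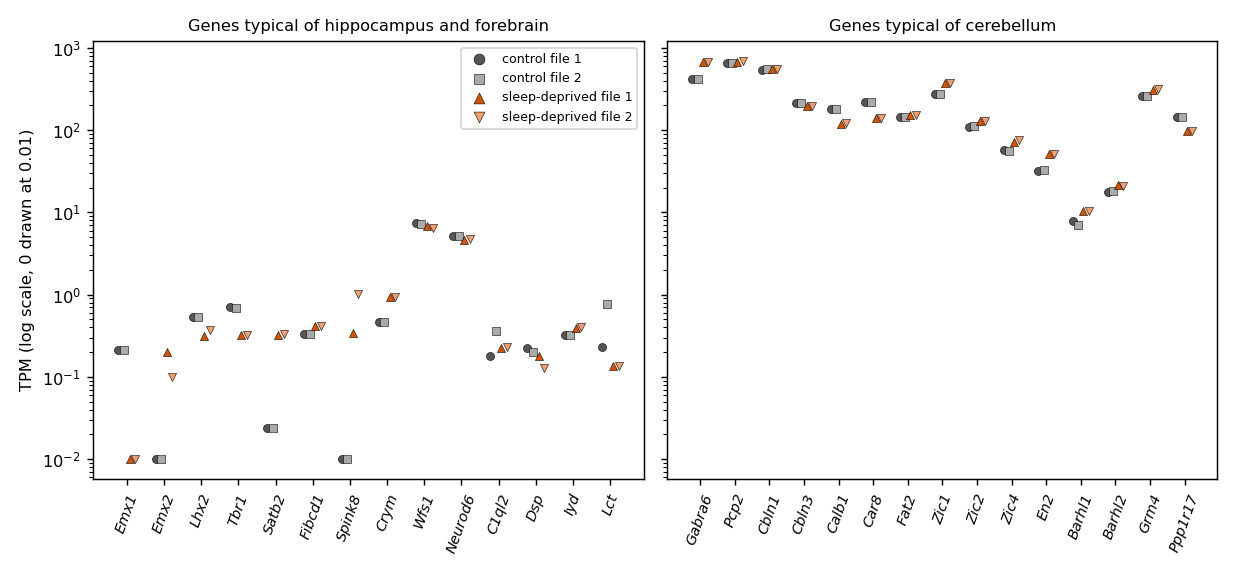
Level in TPM (log scale, with 0 drawn at 0.01) of 14 genes typical of hippocampus and forebrain and 15 typical of cerebellum, 1 point per file. The highest of the hippocampus and forebrain genes, Wfs1, had 6.53 to 7.43 TPM, and in all 4 files every cerebellum gene but Barhl1 (7.0 to 10.4 TPM) sits above that range.

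Most pore-forming members share a short signature, threonine, any residue, glycine, tyrosine or phenylalanine, glycine, which lines the narrowest part of the pore and selects potassium over sodium. The coding DNA of this selectivity filter is printed for abundant or class-typical pore subunits because it shows what the classes have in common and where they differ. Each line gives 45 coding bases, 5′ to 3′ in the sense of the gene, from GENCODE release 21 transcripts on GRCm38 (the assembly that mm10 denotes). Capitals mark the 15 bases of the signature.
Kcnc1: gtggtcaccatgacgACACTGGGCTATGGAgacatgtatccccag
Kcng4: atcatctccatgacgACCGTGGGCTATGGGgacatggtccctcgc
Kcnj9: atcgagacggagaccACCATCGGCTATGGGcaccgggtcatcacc
Kcnk9, first copy: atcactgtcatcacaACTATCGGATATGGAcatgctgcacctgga
Kcnk9, second copy: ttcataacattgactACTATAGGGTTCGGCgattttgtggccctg
Kcnma1: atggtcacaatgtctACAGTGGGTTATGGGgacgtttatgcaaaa
Kcnt1: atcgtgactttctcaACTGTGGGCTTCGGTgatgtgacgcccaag
The windows lie in coding exons. That of Kcnc1 is at chr7:46427958-46428002 on the plus strand, in exon 2 of 4. That of Kcnt1 is at chr2:25894352-25894396 on the plus strand, in exon 11 of 32. The windows of Kcng4 (chr8:119625895-119625939), Kcnj9 (chr1:172326169-172326213) and Kcnma1 (chr14:23528398-23528442) are on the minus strand. The first window of Kcnk9 crosses an exon junction, between chr15:72513022-72546018 on the minus strand.

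The signature was frequent among pore subunits and absent from the auxiliary ones. In the longest coding transcript of each gene it was found in 23 of 30 voltage-gated, 10 of 10 silent, 14 of 15 inward rectifier, 14 of 14 two-pore, 2 of 5 calcium-activated and 3 of 3 Slack-type genes, and in 0 of 16 auxiliary genes. Its absence does not mark an auxiliary gene, since 11 pore genes lacked it too. Of the two-pore genes 11 held it in 2 copies, as the Kcnk9 lines show, where 1 copy reads tyrosine and the other phenylalanine. The 7 voltage-gated genes without it were all of the EAG type (Kcnh), the inward rectifier without it was Kcnj14, and the 3 calcium-activated genes without it were Kcnn1, Kcnn2 and Kcnn3. Among all 21866 protein-coding genes, 229 (1.05%) held the signature.

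Among the 69 measured members, 2 were called higher in the sleep-deprived library (2.90%), where 4.24% of all measured genes were, and 11 were called lower (15.9%), where 5.65% of all measured genes were. In either direction 9.89% of all measured genes were called. Kcnab2 and Kcnrg were the genes called higher. Kcna4, Kcnc2, Kcnh8, Kcng1, Kcns2, Kcns3, Kcnj8, Kcnt2, Kcne1l, Kcnip2 and Kcnip4 were the genes called lower. The ratio of sleep-deprived to control was below 1 for 48 of the 69 (69.6%), against 50.8% of all measured genes, and the median log2 ratio was −0.38 against −0.01 over all measured genes.

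Most of the lower calls were of weakly detected genes. The filter on low counts could be passed through 1 library alone. Kcna4, Kcnh8, Kcng1 and Kcne1l, all called lower, had under 10 reads after deprivation and passed through the control. Their calls thus lean on the library in which they were high, and the shares over all measured genes hold such calls too. Of 26 members with a mean under 5 CPM, 8 were called lower (30.8%) and 1 higher (3.85%), against 16.1% and 10.5% of all measured genes at that level, and 18 had a ratio below 1 (69.2%, against 56.7%). Of 43 members with a mean of 5 CPM or more, 3 were called lower (6.98%) and 1 higher (2.33%), against 2.54% and 2.38% of all measured genes at that level. Of those 43, 30 had a ratio below 1 (69.8%, against 49.1%). The summed level of all members moved little, from 5312 CPM in the control to 5524 CPM after deprivation, a ratio of 1.04 (95% interval 1.03 to 1.05). All measured genes together had the same summed ratio, 1.04, with 981722 CPM in the control and 1016968 CPM after deprivation. The summed ratio of a class is therefore to be set beside 1.04 and not beside 1. Without Kcnt1, the most abundant member, the sum was 4127 and 4004 CPM, a ratio of 0.970 (0.959 to 0.981).

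**Figure D2:**
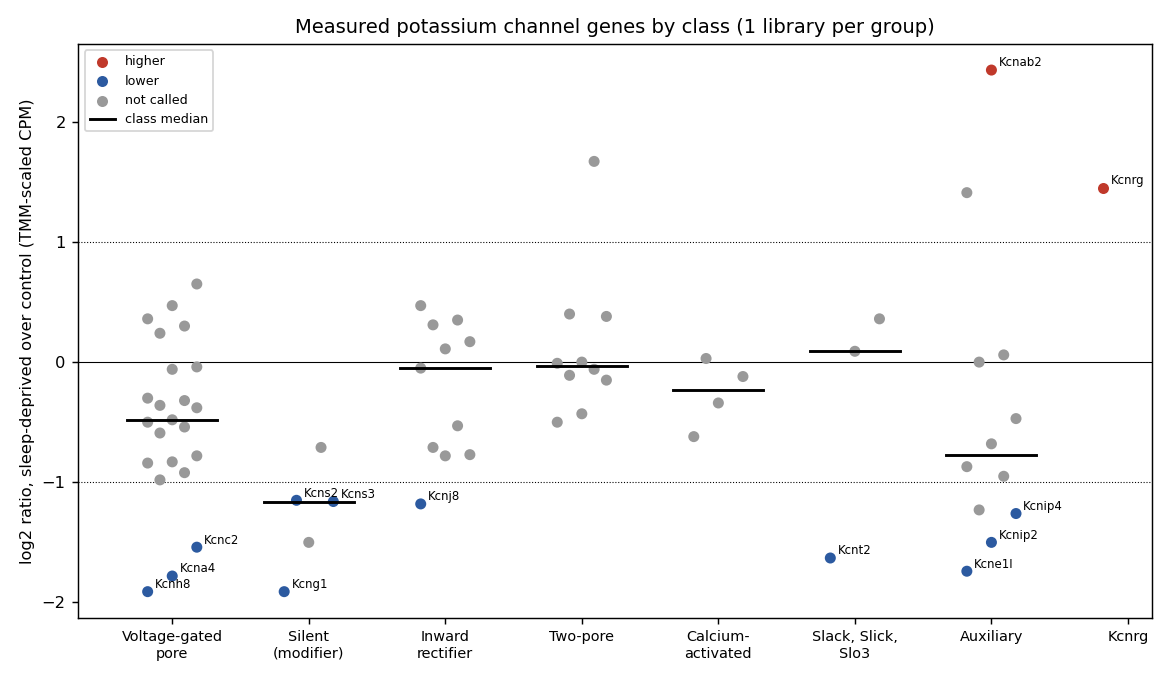
Log2 ratio of sleep-deprived over control TMM-scaled CPM for the 69 measured members, 1 point per gene, grouped by class, with the class median as a bar and dotted lines at 2-fold. Red and blue points are the 2 genes called higher and the 11 called lower. Among classes of 3 or more measured genes the medians run from −1.16 for the silent subunits to 0.09 for the 3 Slack-type genes (−0.74 when transcript lengths entered the scaling). Kcnab2 stands highest at 2.43.

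Levels differed more between members than between groups. On the TPM scale, 31 members had a mean of at least 10 TPM and 12 of at least 50 TPM. Kcnt1, the sodium-activated channel Slack, was the most abundant at 520 and 525 TPM in the control files and 913 and 907 TPM in the sleep-deprived files. Kcnc1, a fast voltage-gated channel that permits high firing rates, followed at 257 to 278 TPM over the 4 files. Kcnk1, Kcnip4, Kcnj9, Kcnab3, Kcnk9, Kcnip3, Kcnd2 and Kcnn2 were also among the members with a mean of 50 TPM or more. These levels sum coding and non-coding transcripts. The coding transcript Kcnab3-201 was at 1.89 to 8.52 TPM over the 4 files. The main coding transcript of Kcnt1, Kcnt1-201, was at 258 to 313 TPM. Kcnt1 took 22.3% of all Kcn reads in the control and 27.5% after deprivation.

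TPM and CPM do not rank the groups alike. Kcnc1 was at 258 TPM in the control and 278 TPM after deprivation, yet at 593 and 567 CPM. TPM, which accounts for transcript length, was therefore used to compare members with each other, and CPM to compare the groups.

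**Figure D3:**
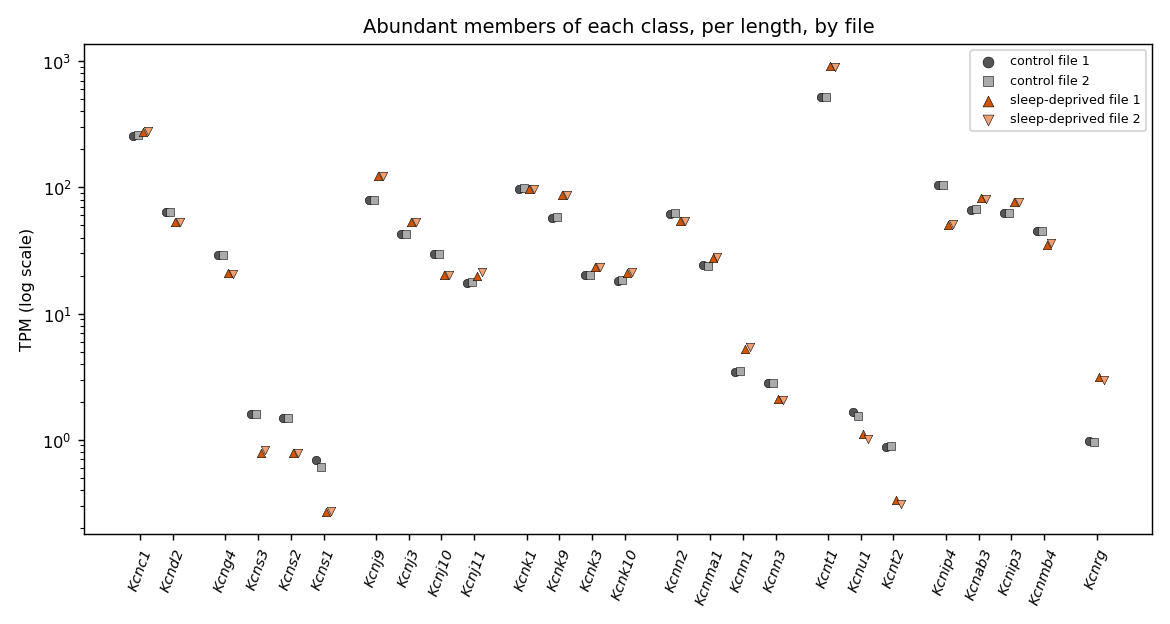
Level in TPM (log scale), summed over coding and non-coding transcripts, of abundant members of each class (up to 4), 1 symbol per file. The paired symbols of a group nearly coincide, and the members span from under 1 TPM (Kcns1, Kcnt2) to over 500 TPM (Kcnt1).

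Voltage-gated pore subunits were lower more often than higher in the sleep-deprived library. Of 30 genes 23 were measured, 0 were called higher, 3 were called lower, 18 had a ratio below 1, and the median log2 ratio was −0.48. Their summed level was 2215 CPM in the control and 2117 CPM after deprivation, a ratio of 0.956 (0.941 to 0.971).

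Among the Shaw-type subunits, which close quickly and serve fast spiking, Kcnc1 was at 593 and 592 CPM in the control files and 566 and 567 CPM in the sleep-deprived files, a ratio of 0.956 (0.928 to 0.986). Kcnc2 was at 7.89 and 7.85 CPM in the control files and at 2.61 and 2.69 CPM in the sleep-deprived files, and was called lower at 0.343 (0.231 to 0.498). The abundant Kcnc1 thus differed little, and the weakly expressed Kcnc2 was well below its control level.

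Shaker-type genes (Kcna), which include axonal channels, summed to 437 CPM in the control and 296 CPM after deprivation, a ratio of 0.678 (0.652 to 0.704). Kcna4, a fast-inactivating subunit, had 22 reads in both control files and 6 in both sleep-deprived files and was called lower at 0.290 (0.0963 to 0.738). Kcna2, the most abundant of the subfamily, was at 377 and 378 CPM in the control files and 251 and 250 CPM in the sleep-deprived files, a ratio of 0.664 (0.636 to 0.692). Kcna1, its axonal partner, went the other way, with 19 and 18.5 CPM in the control files and 24.1 and 23.8 CPM in the sleep-deprived files (1.28, 1.09 to 1.51). In these last 2 genes neither difference reached 2-fold.

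Shal-type genes (Kcnd), which carry the dendritic A-type current, summed to 0.760 of the control level (0.727 to 0.795). Kcnd2 was at 194 CPM in both control files and 139 CPM in both sleep-deprived files, a ratio of 0.718 (0.677 to 0.760). The pair of Shab-type genes (Kcnb), delayed rectifiers of the cell body, summed to 0.514 of the control level (0.452 to 0.583), with 49.8 CPM in the control and 25.6 CPM after deprivation. Neither Shab-type gene passed the 2-fold rule alone.

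EAG-type genes (Kcnh) summed to 0.723 of the control level (0.670 to 0.781). Kcnh8 was called lower, with 16 and 15 reads in the control files and 4 in both sleep-deprived files (0.266, 0.0647 to 0.825). On protein-coding transcripts alone it had 10 and 4 reads and was not measured, so that call was lost.

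Silent subunits, which form channels only together with Shab-type subunits, were the class with the lowest median. Of 10 genes 5 were measured, and all 5 had a ratio below 1, with a median log2 ratio of −1.16 and a summed ratio of 0.585 (0.529 to 0.645). Kcns2 had 73 reads in both control files and 31 in both sleep-deprived files (0.452, 0.287 to 0.697). Kcns3, a subunit typical of fast-spiking interneurons, had 31 reads in both control files and 13 in both sleep-deprived files (0.446, 0.214 to 0.878). These genes and Kcng1, with 12 reads in both control files and 3 in both sleep-deprived files (0.266, 0.0482 to 0.986), were called lower. Kcng1, Kcns1, Kcns2 and Kcns3 had a mean under 5 CPM, where 16.1% of all measured genes were called lower, against 5.65% at any level. Measured Kcn genes under 5 CPM had a median log2 ratio of −0.81, and the part of low level in the class median was not tested.

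Kcng4 made up most of the silent class, at 64.3 and 64.4 CPM in the control files and 39.4 and 39.3 CPM in the sleep-deprived files (0.611, 0.550 to 0.679), short of 2-fold. Kcns1 had 16 and 14 reads in the control files and 5 in both sleep-deprived files. Its ratio of 0.355 had an interval of 0.101 to 1.03 and was not called, but it was called at 0.343 with scaling by library totals and at 0.333 without control replicate 2. The silent genes and their Shab-type partners thus moved in the same direction in this pair of libraries.

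Inward rectifiers as a class differed little between the libraries. Of 15 genes 11 were measured, 0 were called higher and 1 was called lower, with 6 ratios below 1 and a median log2 ratio of −0.05, which was 0.01 when transcript lengths entered the scaling. The summed level was 439 CPM in the control and 452 CPM after deprivation (1.03, 0.995 to 1.07). Ratios lay on both sides of 1, and apart from Kcnj8 none of the genes described next was called.

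Kcnj9 and Kcnj3 encode subunits of neuronal channels that G proteins open downstream of inhibitory receptors. Kcnj9 was at 172 CPM in both control files and 220 CPM in both sleep-deprived files (1.28, 1.21 to 1.34). Kcnj3 was at 103 CPM in both control files and at 116 and 115 CPM in the sleep-deprived files (1.12, 1.05 to 1.20). Kcnj11, the pore of ATP-sensitive channels, was at 29.2 and 29.4 CPM in the control files and 28.2 and 28.3 CPM in the sleep-deprived files, with an interval of the ratio that held 1 (0.841 to 1.11). Kcnj6, another subunit of the G-protein-opened channels, was at a ratio of 0.690 with an interval that held 1 (0.470 to 1.01).

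Both inward rectifiers of the astrocyte list had ratios below 1. Kcnj10, the main potassium buffer of astrocytes, was at 95.3 and 94.9 CPM in the control files and 55.9 and 55.3 CPM in the sleep-deprived files, a ratio of 0.586 (0.536 to 0.639). Kcnj16, which joins Kcnj10 in mixed channels, was at 10.5 and 10.6 CPM in the control files and 6.56 and 6.51 CPM in the sleep-deprived files (0.612, 0.468 to 0.796). Neither reached 2-fold. Kcnj2, on the microglia list, was at 1.24 with an interval that held 1 (0.630 to 2.47). Kcnj9 and Kcnj10, the genes with opposite direction, lie next to each other on chromosome 1 (chr1:172320501-172329318 and chr1:172341210-172374085), with 11892 bases between them.

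Over all transcripts, all 6 members of a list of astrocyte potassium channels had a ratio below 1, although 0 were called, and their sum was 0.802 of the control level (0.768 to 0.837). Beside Kcnj10 and Kcnj16 the list held Kcnk1 (0.899), Kcnk2 (0.709), Kcnk10 (0.993) and Kcnn3 (0.652). On protein-coding transcripts alone the direction was not shared. There Kcnj10 (0.595), Kcnj16 (0.622) and Kcnk1 (0.914) were below 1, while Kcnk2 was at 1.62 (1.22 to 2.15) and Kcnk10 at 1.01 (0.931 to 1.10). Kcnn3, with 5 and 1 coding reads, was not measured. Of 7 astrocyte marker genes, none of them at 0, 3 were called lower (5.65% of all measured genes were) and 7 had a ratio below 1. Their sum was 1608 CPM in the control and 842 CPM after deprivation (0.524, 0.512 to 0.535). The part of this marker difference in the channel values was not tested.

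Kcnj8, the pore of the ATP-sensitive channel of pericytes and smooth muscle, was the inward rectifier called lower. It had 41 reads in both control files and 17 in both sleep-deprived files (0.441, 0.235 to 0.794). Its partner Abcc9, the sulfonylurea receptor of the same channel, had 88 and 75 reads (0.907, 0.658 to 1.25). The 6 mural markers, which include both genes, summed to 154 CPM in the control and 99.8 CPM after deprivation, none was at 0, and their part in the Kcnj8 value was not tested.

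Two-pore subunits, which carry background potassium current, gave 0 calls in either direction among 10 measured of 14. Their median log2 ratio was −0.03 (0.01 without the filter on low counts and 0.02 over protein-coding transcripts), and their sum was 700 CPM in the control and 814 CPM after deprivation (1.16, 1.13 to 1.19). Kcnk9, an acid-sensitive channel abundant in cerebellar granule cells, accounted for the larger sum, at 433 and 434 CPM in the control files and 564 and 563 CPM in the sleep-deprived files (1.30, 1.26 to 1.34). Kcnk1 was at 112 and 111 CPM in the control files and 100 CPM in both sleep-deprived files (0.899, 0.837 to 0.966).

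Kcnk3, the closest relative of Kcnk9 among the abundant genes, was at 44.9 and 44.5 CPM in the control files and 43.1 and 42.7 CPM in the sleep-deprived files (0.960, 0.859 to 1.07). Kcnk10, a channel opened by membrane stretch and lipids, was at 78.3 CPM in the control and 77.7 CPM after deprivation (0.993, 0.914 to 1.08). For both genes the interval of the ratio held 1. Kcnk5 had the highest ratio of the class but only 4 and 3 reads in the control files and 12 and 11 in the sleep-deprived files. Its interval of 0.968 to 13.6 held 1, so no difference was detectable at this depth.

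Calcium-activated subunits gave 0 calls among 4 measured of 5, with a summed ratio of 0.942 (0.898 to 0.989). Kcnma1, the large-conductance BK channel that opens on voltage and calcium together, was at 161 and 160 CPM in the control files and 164 and 165 CPM in the sleep-deprived files (1.02, 0.966 to 1.08). The small-conductance genes, which set the pause after an action potential, were lower in sum (0.768, 0.700 to 0.841). Kcnn2 was at 54.0 and 53.7 CPM in the control files and 42.9 and 42.3 CPM in the sleep-deprived files (0.791, 0.711 to 0.880), and Kcnn3 was at 0.652 (0.518 to 0.819). Of the Kcnn3 reads, 97.5% in the control and 99.2% after deprivation fell on retained-intron transcripts. Its coding transcripts had 5 and 1 reads, so Kcnn3 was not measured on them. Kcnn1 was at 0.921 (0.670 to 1.26), and the direction turned to 1.33 when transcript lengths entered the scaling.

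The sodium-activated channel Kcnt1 (chr2:25863734-25918273, plus strand) was the most abundant member, with 1184 and 1186 CPM in the control files and 1520 and 1521 CPM in the sleep-deprived files, a ratio of 1.28 (1.26 to 1.31). Its relative Kcnt2 was called lower, with 46 reads in both control files and 14 and 13 in the sleep-deprived files (0.324, 0.164 to 0.600). Kcnu1, the sperm channel Slo3, had 13 and 11 reads in the control files and 12 and 11 in the sleep-deprived files, with an interval of 0.437 to 2.59. Counted on protein-coding transcripts alone the Kcnt1 ratio was 1.05 (1.03 to 1.08).

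The Kcnt1 difference lay in transcripts annotated as retaining an intron. Their share of Kcnt1 reads was 22.7% and 22.9% in the control files and 37.4% and 36.9% in the sleep-deprived files. The main coding transcript, Kcnt1-201, was at 905 and 904 CPM in the control files and 930 and 938 CPM in the sleep-deprived files (1.03, 1.01 to 1.06). Kcnt1-206, a retained-intron transcript, was at 70.6 and 68.8 CPM in the control files and 216 and 217 CPM in the sleep-deprived files (3.11, 2.90 to 3.34). Kcnt1-207, another of the kind, was higher as well (3.56, 2.88 to 4.44).

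Over all Kcn genes the share of reads on retained-intron transcripts was 6.96% in the control and 12% after deprivation. Without Kcnt1 it was 2.40% and 2.44%. Over all genes the share was 10.6% and 13.3%. Among genes with such transcripts and at least 100 reads, the share was higher in the sleep-deprived library in 6 of 11 Kcn genes (54.5%) and in 61.2% of all genes.

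Auxiliary subunits held the highest ratio of all measured members and 3 of the 11 lower calls. Of 16 genes 12 were measured, 1 was called higher and 3 were called lower. The median log2 ratio was −0.78, and the summed level was 460 CPM in the control and 352 CPM after deprivation (0.765, 0.737 to 0.793).

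Kcnab2 encodes a cytoplasmic beta subunit that resembles an aldo-keto reductase and helps Shaker-type channels reach the axon. The gene lies at chr4:152390742-152477871 on the minus strand. It had 77.37 and 70.63 estimated reads in the control files and 377.01 and 375.15 in the sleep-deprived files, or 5.13 and 4.70 against 26.6 and 26.5 CPM. The ratio was 5.41 (4.20 to 7.04). The summed level of the 14 microglial markers was 3.16 times as high in the sleep-deprived library (3.03 to 3.30), and its part in the Kcnab2 value was not tested.

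Most Kcnab2 reads fell on the coding transcript Kcnab2-201, with 67.4 and 69.6 reads in the control files and 334.6 and 316.3 in the sleep-deprived files (5.09, 3.91 to 6.71). Kcnab2-205, which begins further downstream, had 0 reads in both control files and 42.4 and 57.9 in the sleep-deprived files. Against the floor of 3 reads it was at least 17.7-fold higher. The files carry another version than the annotation for 9 of the 14 Kcnab2 transcripts, so the transcript structures used by the authors may differ from those named here.

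The promoter of Kcnab2 is printed because this gene had the highest ratio of the measured members. The RefSeq table holds 3 promoters of the gene, and the 300 bases below, chr4:152477500-152477799 on the minus strand of GRCm38.p6, contain the start of Kcnab2-201 at position 152477525. They run from 250 bases before to 50 bases after the RefSeq start, and capitals mark the motifs CCAAT and TGACGT on either strand.
Kcnab2 promoter: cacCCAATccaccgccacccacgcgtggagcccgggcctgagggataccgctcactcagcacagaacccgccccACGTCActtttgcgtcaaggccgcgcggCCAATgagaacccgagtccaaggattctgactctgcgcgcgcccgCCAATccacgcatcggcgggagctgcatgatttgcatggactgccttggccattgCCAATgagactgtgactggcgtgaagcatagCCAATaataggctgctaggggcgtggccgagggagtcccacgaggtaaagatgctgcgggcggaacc
The window held 5 copies of CCAAT and 1 of TGACGT, the latter as its reverse complement, with no overlap between the motifs. The motifs were chosen after values had been seen. At least 5 copies of CCAAT were found in 89 of 32851 promoters of the same length (0.271%), and at least 1 copy of TGACGT in 7.51%. Of the 94 promoters that the table holds for 69 Kcn genes, 29 held CCAAT (30.9%), where 37.4% of all promoters did, and 5 held TGACGT (5.32%). A match of letters is a description and shows no binding.

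The other beta subunits depended on which transcripts were counted. Over all transcripts Kcnab1 was at 71.1 and 71.6 CPM in the control files and 51.4 and 51.8 CPM in the sleep-deprived files (0.723, 0.657 to 0.795). Kcnab3 was at 68.9 and 69.6 CPM in the control files and 69.9 and 68.9 CPM in the sleep-deprived files (1.0, 0.918 to 1.10), so its files overlapped. Most reads of these genes fell on non-coding transcripts, with 91.2% and 91.3% of Kcnab1 reads on processed transcripts and 96.1% and 95.6% of Kcnab3 reads on retained-intron transcripts in the control files.

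On protein-coding transcripts alone all 3 beta subunit genes were called higher in the sleep-deprived library. Kcnab1 had 54 coding reads in the control and 220 after deprivation, a ratio of 4.41 (3.26 to 6.05), which reverses the direction over all transcripts. Kcnab3 had 44 and 141 coding reads (3.47, 2.46 to 4.98), and Kcnab2 had 72 and 376 (5.65, 4.38 to 7.37). The coding share of Kcnab1 reads was 5.06% and 4.92% in the control files and 31.1% and 29.2% in the sleep-deprived files. Kcnab1 was named after its values had been seen.

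With this count 4 of 66 members were called higher, where 6.67% of all genes were, and 9 were called lower, where 6.00% of all genes were. For 6 genes the log2 ratio differed by more than 0.5 between the counts: Kcnab1, Kcnab3, Kcnip2, Kcnip4, Kcnk2 and Kcnk4. Kcnk2 turned from 0.709 over all transcripts to 1.62 (1.22 to 2.15) over coding ones. Kcnk4 turned from 0.925 to 0.481 (0.249 to 0.889), and 13.1% of its exon bases lie within another gene, Catsperz.

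**Figure D4:**
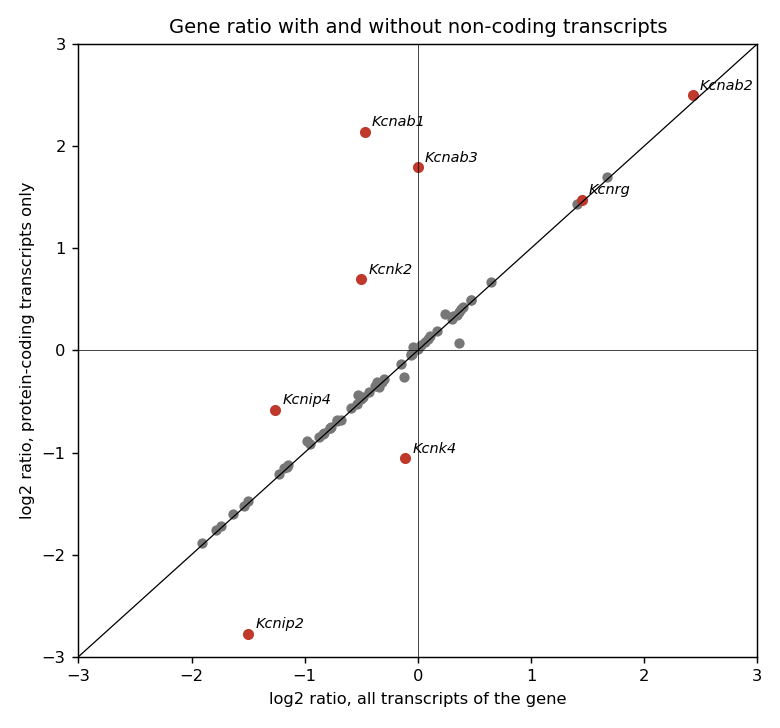
Log2 ratio of sleep-deprived over control CPM from protein-coding transcripts only (vertical) against all transcripts of the gene (horizontal), 1 point per member measured both ways (66 genes), with the diagonal of equal values. Named red points are Kcnab2, Kcnrg and the 6 genes whose log2 ratios differed by more than 0.5; Kcnab1 and Kcnab3 stand above the diagonal and Kcnip2 below it.

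Kv4-binding calcium sensors (Kcnip) bind Shal-type channels and tune their surface level and inactivation. They summed to 274 CPM in the control and 179 CPM after deprivation (0.654, 0.622 to 0.687), beside the 0.760 of the Shal-type genes themselves. Kcnip4 was the most abundant member called lower, at 126 and 125 CPM in the control files and 52.3 and 52.5 CPM in the sleep-deprived files (0.417, 0.383 to 0.454). On its protein-coding transcripts it was at 0.668 (0.596 to 0.749) and was not called. The coding share of its reads was 46.9% and 37.7% in the control files and 57.7% and 75.7% in the sleep-deprived files, so the split differed between files of 1 group.

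Kcnip2 was at 11.1 and 11.2 CPM in the control files and 3.88 and 4.03 CPM in the sleep-deprived files and was called lower (0.355, 0.257 to 0.483). On coding transcripts it had 148 reads in the control and 20 after deprivation (0.146, 0.0868 to 0.234). Its transcript Kcnip2-202 had 150.5 and 145.3 reads in the control files and 0 in both sleep-deprived files, at least 46.3-fold lower against the floor of 3 reads. Another coding transcript, Kcnip2-209, went from 0 in both control files to 22.8 and 17.8 reads in the sleep-deprived files, and how salmon divided reads between the transcripts was not tested. Kcnip3, also known as the transcriptional repressor DREAM, was at 96.5 and 96.7 CPM in the control files and 101 and 100 CPM in the sleep-deprived files (1.04, 0.967 to 1.12). Thus 3 of the 4 sensors had a ratio below 1 and Kcnip3 did not.

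Single-span subunits (Kcne) slow or modulate voltage-gated channels. Kcne1l, also named Kcne5, was called lower, with 33 and 30 reads in the control files and 9 in both sleep-deprived files (0.299, 0.126 to 0.642). Kcne4 pointed the other way, with 6 and 7 reads in the control files and 15 in both sleep-deprived files, but its interval of 0.975 to 8.37 held 1. Kcnmb4, the neuronal BK beta subunit, was at 31.0 and 30.7 CPM in the control files and 19.2 CPM in both sleep-deprived files (0.624, 0.535 to 0.726), while its pore partner Kcnma1 was at 1.02.

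Kcnrg, which holds back Kv1 channels by binding their assembly domain, was the other member called higher. It had 14 reads in both control files and 37 and 35 in the sleep-deprived files (2.74, 1.44 to 5.49). Its level stayed low, at 0.968 TPM in the control and 3.04 TPM after deprivation.

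Transcripts were examined one by one for the members with at least 10 reads on them in either library. Of 137 such transcripts in 68 genes, 27 were past 2-fold higher (19.7%), where 23.5% of all transcripts were, and 32 were past 2-fold lower (23.4%), where 13.5% of all transcripts were. Among the 103 protein-coding ones 17 were higher (16.5%, against 19.6% of all such transcripts) and 24 lower (23.3%, against 14.8%). Among the 20 retained-intron ones 6 were higher (30%, against 30.3%) and 2 lower (10%, against 8.02%). Of the 27 higher and 32 lower transcripts, 24 and 27 were past 2-fold in every pairing of a control with a sleep-deprived file. Some of the larger transcript differences were in genes whose totals were not called.

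Kcnj3-201 was at 8.50 and 8.80 CPM in the control files and 31.3 and 28.3 CPM in the sleep-deprived files (3.45, 2.82 to 4.23), while Kcnj3-202 was at 0.908 (0.841 to 0.981). Kcnip3-201 was lower at 0.166 (0.117 to 0.229), while Kcnip3-203 was at 1.24 (1.15 to 1.35). Both genes were named for their transcripts after the values had been seen.

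**Figure D5:**
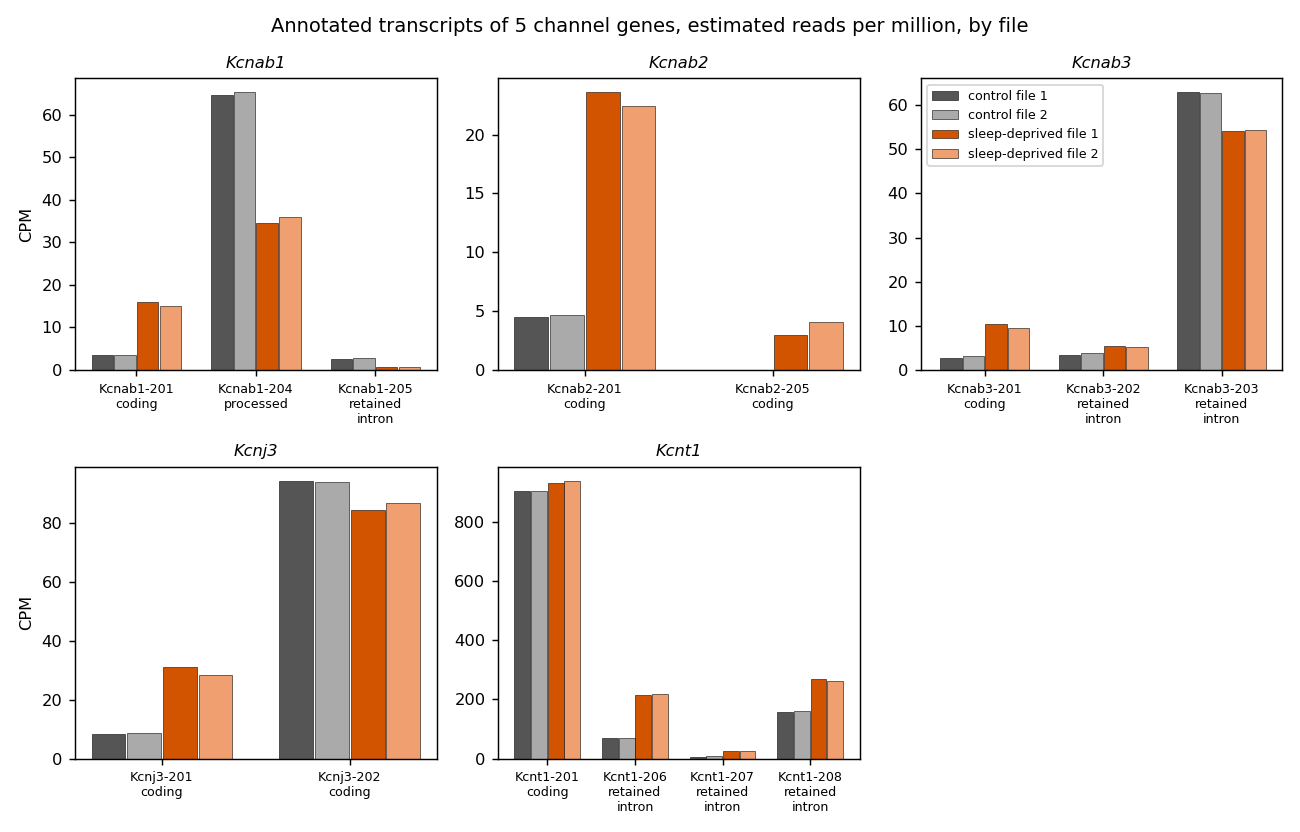
Level in CPM of the annotated transcripts of 5 channel genes, 1 bar per file, with bars starting at 0. The coding transcripts Kcnab1-201, Kcnab2-201 and Kcnab3-201 are taller in both sleep-deprived files, while Kcnt1-201 is nearly level between the groups (1.03).

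Changes of transcript within a gene rest on how the authors' model divided shared reads. Kcnj8 reads sat on Kcnj8-201 in the control files (41 in both) and on Kcnj8-202 in the sleep-deprived files (17 in both), with 0 on the other transcript each time. For Kcne2 the 41 reads of the sleep-deprived files were put on Kcne2-201 in the first file and on Kcne2-202 in the second. For Kcnj16 the 160 reads of the second control file were all put on Kcnj16-201, whereas the first control file had 103.4 of its reads on Kcnj16-202. Files that agree on a gene total can therefore disagree on its transcripts, and transcript values of such genes, Kcnip4 and its coding ratio among them, are uncertain.

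Potassium channels known from microglia showed no common direction. Of 7 genes on that list 5 were measured, 0 were called, and the median log2 ratio was 0.03. Kcnk13, the two-pore channel of surveying microglia, had 20 and 26 reads in the control files and 16 in both sleep-deprived files (0.740, 0.366 to 1.46). Kcnk6 had 38 reads in both control files and 47 in both sleep-deprived files (1.32, 0.840 to 2.07), and Kcnj2 had 18 and 21 (1.24, 0.630 to 2.47). Kcna5 had 12 and 11 reads in the control files and 8 and 7 in the sleep-deprived files (0.709, 0.252 to 1.89).

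For these 4 genes the interval held 1, so no difference was detectable at this depth. Kcnma1, the remaining measured gene of that list, was at 1.02. Kcnn4, the intermediate-conductance channel of activated microglia, had 12 and 13 reads in the control files and 0 in both sleep-deprived files, at least 3.76-fold lower against the floor of 3 reads, although it did not pass the filter on low counts. Kcna3 had 0 reads in both control files and 4 in both sleep-deprived files. The microglial markers over the same libraries were 3.16 times as high in sum in the sleep-deprived library.

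Neuronal channel lists gave mostly ratios below 1, as did the measured Kcn genes as a whole (69.6%, against 50.8% of all measured genes). Of 5 channels typical of fast-spiking neurons 2 were called lower, Kcnc2 and Kcns3, and 4 had a ratio below 1. Lower calls made up 15.9% of the measured Kcn genes and 5.65% of all measured genes. Kcns3 had a mean under 5 CPM, where 16.1% of all measured genes were called lower. The 6 markers of inhibitory neurons summed to 558 CPM in the control and 343 CPM after deprivation (0.615, 0.593 to 0.637), with Vip at 8 reads and 0, and their part in those channel values was not tested. The channels listed for pyramidal neurons are not assigned to that cell type here, since the hippocampus and forebrain genes summed to 15.3 to 16.4 TPM. Of the 9 measured channels on that list 1 was called lower, Kcnip4, and 6 had a ratio below 1. The 8 general neuron markers also lay mostly below 1 (6 of 8), with a sum of 0.843 of the control level. Of 5 channels on the oligodendrocyte list 0 were called and 3 had a ratio below 1, Kcnj10, Kcnk1 and Kcna2, while Kcnj9 and Kcna1 were above it. The oligodendrocyte markers summed to 0.625 of the control level, 2 of the 7 were called lower, and the part of these marker values in the channel values was not tested. The 15 cerebellum genes had no common direction, with 0 called and 8 below 1, from Car8 at 0.547 to Barhl1 at 1.71.

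Proteins that partner, anchor or depend on potassium channels were described from a list of 40 genes, of which 39 were measured. None was called higher and 2 were called lower, where 4.24% and 5.65% of all measured genes were. A ratio below 1 was found for 24 of the 39, against 50.8% of all measured genes. The median log2 ratio was −0.12 against −0.01. The genes called lower were Hcn4, a pacemaker channel (0.485, 0.307 to 0.752), and Actn2, an actin crosslinker that binds several channels (0.258, 0.177 to 0.368). Dpp6 and Dpp10, the membrane partners of Shal-type channels, were at 0.793 (0.754 to 0.834) and 0.714 (0.655 to 0.778). Abcc8, the neuronal partner of Kcnj11, was at 1.49 (1.42 to 1.57).

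The 25 members that did not pass the filter had few reads in any file, and 6 of them (Kcne1, Kcne3, Kcng3, Kcnj1, Kcnk16 and Kcnv1) had 0 in both libraries. A count of 0 allows up to 3 reads, or 0.199 CPM in the control and 0.212 CPM after deprivation, for counting error only. The others included the Shaker-type Kcna7 and Kcna10 and the cardiac and epithelial subunit Kcnq1, with 3 and 2 reads in the control files and 2 in both sleep-deprived files. Kcnj13 was measured but is uncertain, because 49.1% of its exon bases lie within another gene, Gigyf2, and the sources used here do not say whether the counting used strand.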

How the data were processed

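The authors deposited, per the file headers, a length, an effective length, a TPM and an estimated count for each transcript in each of 4 files. The submitters' processing notes list Salmon, DESeq2 and mm10, while no version or read strand is given in the sources used here. The TPM values are the authors' own and were summed per gene to give levels. The estimated counts, deposited without normalization, were summed per gene after matching transcript identifiers to GENCODE release 21 (115898 of 116546, or 99.4%), averaged over the 2 files of a group and rounded to whole numbers. Reads on unmatched transcripts, 0.339% to 0.366% of a file, were left out. Genes were filtered with filterByExpr at a minimum count of 10 and scaled by TMM in edgeR 4.0.16 (R 4.3.3). Depth was between 14431647 and 14877011 estimated reads per file.

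Because paired files of one group differed less than sampling noise allows (chi-square per degree of freedom of 0.335 in the control and 0.207 in the sleep-deprived group over all genes with a mean of at least 20 reads), there was 1 library per group. The planned edgeR quasi-likelihood test, the DESeq2 test and the replicate block could not be applied, so the text holds no p-value. A rule of size took their place: a ratio of at least 2-fold whose exact 95% interval excluded 1, with a floor of 3 reads. The rule was tried on simulated counts with sampling noise only, which cannot show how it fares with differences between mice or libraries. Ratios of sums over a class use the same interval.

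The members, the gene lists and the size rule were chosen with earlier results of these data known. Genes are named where they were called, where they were among the 4 highest mean TPM of their class, or where they were on the microglia, astrocyte or mural lists, with the 3 highest transcripts of each called gene. Kcna1, Kcna2, Kcnab1, Kcnk4, Kcnk5, Kcne4 and a few others were named after their values were seen. Some genes and sequences that the rule names are not reported here. Selectivity filter windows were cut from GENCODE coding transcripts and the promoter from a RefSeq table on GRCm38.p6. Alternatives changed the scaling, the filter, the fold, the transcripts counted and the files used.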

Additional observations from a re-analysis of the deposited data

How the results depend on the processing

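No paired analysis was possible because the 2 files of each group agreed within sampling noise and were counted as 1 library, which left no residual degrees of freedom. With a fold of 1.5, 24 Kcn genes were called lower and 3 higher, against 2031 and 1856 of all measured genes, and the summed silent class, at 0.585, was past the fold. With protein-coding transcripts only, 4 Kcn genes were called higher and 9 lower, Kcnab1 was reversed to 4.41, Kcnab3 was called at 3.47, Kcnk4 was newly called lower (0.481), and Kcng1 (0.270), Kcnip4 (0.668) and Kcnh8 (10 and 4 reads, under the filter) were no longer called. This count moved the share of higher calls from 15.4% to 30.8% among Kcn genes and from 42.9% to 52.6% among all genes; the count left out non-coding transcripts by construction. Leaving out 1 file of a group in turn gave 2 to 3 Kcn genes called higher and 11 to 12 called lower, and the median log2 ratio of the 3 Slack-type genes ranged from -0.04 to 0.21.

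With transcript lengths in the scaling, Kcnt1 was at 1.5, Kcnu1 at 0.598, Kcnh8 at 0.157 and the Slack-type median at -0.74. Without the filter on low counts, 88 Kcn genes were counted, 2 higher and 13 lower, and the median log2 ratio of all genes was 0.101. Scaling by library totals gave 2 higher and 13 lower Kcn genes. For 43 named genes the 11 alternatives gave 471 values, of which 459 stayed on their side of the threshold, 9 passed it newly, 2 fell short of it and 1, that of Kcnab1, was reversed. Other genes named in the text, such as Kcna1, Kcna2 and Kcnk4, were not in this tally. Among values never called, Kcnk2 crossed to 1.62 with protein-coding transcripts only and Kcnn1 to 1.33 with transcript lengths, as did some ratios close to 1. Depth limits the weakly detected members: 26 of the 69 had a mean under 5 CPM, and an interval such as that of Kcnk5 (0.968 to 13.6) held both no difference and a large one. The settings cannot replace mice, since each group is 1 library.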
